A study of Mus musculus with 63 samples.

Results

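Spry1, Spry2, Spry4, Spred1, Spred2, Dusp4, Dusp5, Dusp6 and Il17rd encode inhibitors that ERK signalling switches on to limit itself. These 9 genes were taken by name from 47517 gene symbols counted in 22 RNA-seq libraries of mouse pluripotent cells. All 9 were present in every table, with 21 to 6453 reads per gene and library, and all 9 passed the filter on low counts. The study asked how the transcription factor YY1 maintains extended pluripotent stem (EPS) cells, a cultured state compared here with embryonic stem (ES) cells.

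All cells were of strain C57BL/6. ES cells were kept in serum-free 2i medium and EPS cells in serum-free LCDM medium, both on inactivated embryonic fibroblast feeders or on Matrigel, and the labels do not say which library came from which surface. Untransduced ES and EPS cells gave 3 libraries each. EPS cells with a control hairpin (EPS shCtrl) or a hairpin against Yy1 (EPS shYy1) gave 2 each, as did ES cells with a control construct (ES oeCtrl) or a Yy1 overexpression construct (ES oeYy1). The last 4 groups were sampled again, 2 libraries each, at day 6 of F4H, a condition named in the labels without a description. The titles of the day 6 controls name the control hairpin and the control construct, while their other labels say control only. Whether each line is 1 clone is not stated, and the origin of the replicates is not given, so p-values rest on the spread between libraries, which may be technical. That spread is estimated over all groups of a fit and drawn towards that of other genes. It is not the spread of the compared libraries alone.

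ERK is the last kinase of a cascade that runs from FGF and other growth factors through receptor tyrosine kinases, Ras, Raf and MEK. Active ERK raises transcription of its own inhibitors, so their RNA is often read as an output of the pathway. In mouse ES cells FGF4 and ERK prepare the exit from naive pluripotency, and 2i medium is defined by an inhibitor of MEK together with one of GSK3. LCDM medium holds no MEK inhibitor. Medium and cell state change together in every comparison of undifferentiated EPS with ES cells, and their parts cannot be told apart in these data. On day 6 lines of both origins carry the F4H label. Their earlier medium, origin and construct differ together. In bulk RNA, fewer cells that express a gene and less RNA per cell cannot be told apart either.

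The inhibitors act at 3 levels of the cascade. Sprouty proteins (Spry1, Spry2, Spry4) and the related Spred1 and Spred2 act near the receptor and Ras, and Spred1 brings neurofibromin, which inactivates Ras, to the membrane. Il17rd, also called Sef, is a transmembrane protein that restrains FGF signalling. Dusp4, Dusp5 and Dusp6 encode phosphatases that remove the activating phosphates from ERK itself, Dusp4 and Dusp5 in the nucleus and Dusp6 in the cytoplasm.

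Stretches of 250 bases before a transcription start, from RefSeq on GRCm38.p6, were available for 7 of the 9 genes (not Spry4 and Dusp4). Of them 4 are printed 5′ to 3′ because they belong to 3 genes called on opposite sides with depletion and overexpression of Yy1 in undifferentiated cells (Spry2, Spred1 and Dusp6) and to Dusp5, which was called in neither. Capitals mark the only motif matches among the 7 stretches. The stretch of Il17rd, which is not printed, reaches into the gene span given below and so precedes another start.
Spry2, chr14:105896820-105897069, minus strand: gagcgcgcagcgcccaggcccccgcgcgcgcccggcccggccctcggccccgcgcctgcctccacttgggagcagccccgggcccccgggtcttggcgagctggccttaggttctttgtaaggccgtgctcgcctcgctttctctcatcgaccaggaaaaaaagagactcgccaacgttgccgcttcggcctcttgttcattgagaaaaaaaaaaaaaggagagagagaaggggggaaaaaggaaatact
Spred1, chr2:117120821-117121070, plus strand: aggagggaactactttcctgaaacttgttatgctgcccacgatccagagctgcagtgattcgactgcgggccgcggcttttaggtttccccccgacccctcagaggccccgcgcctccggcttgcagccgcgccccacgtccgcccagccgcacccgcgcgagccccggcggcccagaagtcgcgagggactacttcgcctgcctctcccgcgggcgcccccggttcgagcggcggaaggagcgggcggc
Dusp6, chr10:99262981-99263230, plus strand: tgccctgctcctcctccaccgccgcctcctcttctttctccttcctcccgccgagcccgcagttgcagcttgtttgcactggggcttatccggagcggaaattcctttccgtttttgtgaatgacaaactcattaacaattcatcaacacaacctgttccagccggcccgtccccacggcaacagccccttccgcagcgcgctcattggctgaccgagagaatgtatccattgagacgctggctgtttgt
Dusp5, chr19:53528895-53529144, plus strand: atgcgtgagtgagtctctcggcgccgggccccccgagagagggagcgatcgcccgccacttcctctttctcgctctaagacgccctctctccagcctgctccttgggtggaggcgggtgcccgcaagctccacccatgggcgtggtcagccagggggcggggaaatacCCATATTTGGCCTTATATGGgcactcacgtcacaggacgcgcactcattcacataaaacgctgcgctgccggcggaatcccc

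Both strands were searched for a YY1 motif (AANATGGC), an ETS motif (CCGGAAGT), the cAMP response element (TGACGTCA), AP-1 (TGANTCA), EGR (GCGNGGGCG) and the CArG box bound by serum response factor. Dusp5 held 2 adjacent CArG boxes, CCATATTTGG at 82 to 73 bases and CCTTATATGG at 72 to 63 bases before the start. A CArG box was present in 1.47% of all 32851 RefSeq stretches of this kind. The other 5 motifs, present in 3.91, 2.88, 1.55, 6.75 and 4.7% of them in the order given, had no match in the 7 stretches, which says only that these letters are not in these 250 bases. GC content was 62.4% for Spry2, 70.8% for Spred1, 56.4% for Dusp6 and 64.0% for Dusp5, against a median of 52.4% over all stretches.

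Levels are given as CPM, the reads on a gene relative to all reads on genes in that library. Libraries held 13672061 to 20782348 gene counts, so that 3 counts correspond to 0.144 to 0.219 CPM, a limit that covers counting error only. Replicate 3 of both ES and EPS cells stood apart from replicates 1 and 2. The EPS shCtrl libraries differed more from each other than those of any other group of 2 (chi-square per gene 20.2, against 1.89 to 7.1), and without the first or the second of them the counts of members called were 6 and 7 against ES oeCtrl (7 with both), 5 and 6 against EPS (6 with both), 9 and 9 for the stage change of the hairpin effect (9 with both) and 8 and 7 for the F4H response between origins (7 with both). The hairpin lowered Yy1 in undifferentiated EPS cells from 134 and 134 to 70.5 and 70.5 CPM (log2 -0.99 ± 0.11, adjusted p = 4.43e-06), and the construct raised it in ES cells from 120.4 and 124 to 934 and 941 CPM (log2 2.94 ± 0.11, adjusted p = 4.91e-11). On day 6 the construct still raised Yy1 (332 and 325 against 119.5 and 126 CPM), but the libraries labelled shYy1 held 114 and 109.6 CPM against 129 and 123 (log2 -0.033 ± 0.048, adjusted p = 0.567). The 10 pluripotency markers summed to 5063 to 8113 CPM in undifferentiated cells and to 225.8 to 477.5 CPM on day 6. Summed CPM of 20 fibroblast markers ranged from 4119 to 7207 over the ES libraries and from 1443 to 2817 over the EPS libraries. The Y-linked genes summed to 6.43 to 7.94 CPM in EPS shCtrl and 158.6 to 162.3 in EPS shYy1, and the X-linked genes to 28100 to 28540 and 47530 to 48330 CPM. In ES oeCtrl and ES oeYy1 the Y-linked sums were 113.6 to 132.8 and 28.1 to 28.8 CPM. On day 6 the Y-linked sums were 18.9 to 21.2 in EPS shCtrl and 172.8 to 178.6 in the libraries labelled EPS shYy1, with X-linked sums of 33960 to 34010 and 43720 to 44110, and 103.8 to 106.4 in ES oeCtrl and 67.2 to 73.1 in ES oeYy1. The lines compared thus differed in sex-linked RNA at both stages, and effects of the hairpin or construct cannot be told apart from other differences between lines. All 9 members are autosomal.

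Summed over the 9 genes, the level ranged from 262.7 to 294.4 CPM in the ES libraries and from 601.4 to 618.6 CPM in the EPS libraries. EPS shCtrl had 714.4 to 723.2 CPM and EPS shYy1 289.5 to 314.1 CPM, and ES oeCtrl had 243.3 to 260.4 CPM and ES oeYy1 334.4 to 338.3 CPM. Day 6 sums were higher, 933.2 to 970 CPM for EPS shCtrl, 742.7 to 746 for the libraries labelled EPS shYy1, 1168 to 1194 for ES oeCtrl and 1245 to 1286 for ES oeYy1. The undifferentiated Yy1-depleted EPS cells therefore lay near ES cells in this sum, and undifferentiated groups lay below all day 6 groups. Single genes differed from ES cells in both directions. Means in EPS shYy1 and ES were 112 and 47.7 CPM for Spred2, and 32.1 and 60.2 CPM for Il17rd. Reads were not divided by transcript length, so long and abundant transcripts weigh more in it.

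Group means are given from the highest to the lowest group, each over 3 libraries for ES and EPS and 2 for the others, and neighbours in that order whose libraries overlap are named. Mean CPM of Spry1 (chr3:37639947-37644599) was 61.0 in day 6 EPS shCtrl, 55.4 in day 6 ES oeYy1, 39.8 in day 6 ES oeCtrl, 32.4 in day 6 EPS shYy1, 30.4 in EPS, 18.6 in EPS shCtrl, 15.1 in EPS shYy1, 11.2 in ES oeYy1, 11.0 in ES oeCtrl and 10.2 in ES. For Spry1, neighbours overlapped among day 6 EPS shYy1 and EPS, and among ES oeYy1, ES oeCtrl and ES. Day 6 groups of Spry1 were thus above undifferentiated ones apart from EPS, 5.97-fold from highest to lowest. Mean CPM of Spry2 (chr14:105891947-105896819) was 139 in EPS shCtrl, 129 in EPS, 84.8 in day 6 EPS shCtrl, 75.9 in ES oeYy1, 70.0 in day 6 ES oeYy1, 66.2 in ES, 64.9 in day 6 ES oeCtrl, 43.3 in EPS shYy1, 43.2 in day 6 EPS shYy1 and 42.7 in ES oeCtrl. For Spry2, neighbours overlapped among EPS shCtrl and EPS, and among day 6 ES oeYy1, ES and day 6 ES oeCtrl, and among EPS shYy1, day 6 EPS shYy1 and ES oeCtrl. For Spry2, which varied 3.26-fold, undifferentiated EPS and EPS shCtrl stood above every day 6 group. Mean CPM of Spry4 (chr18:38586247-38601347) was 95.6 in EPS shCtrl, 89.7 in EPS, 39.8 in day 6 ES oeYy1, 31.1 in day 6 ES oeCtrl, 28.0 in day 6 EPS shCtrl, 15.8 in EPS shYy1, 15.4 in ES oeYy1, 13.7 in day 6 EPS shYy1, 6.15 in ES and 1.57 in ES oeCtrl. For Spry4, neighbours overlapped among EPS shCtrl and EPS, and among EPS shYy1, ES oeYy1 and day 6 EPS shYy1. Spry4 followed the same order at the top and had the widest range of the 9 genes, 60.8-fold.

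Mean CPM of Spred1 (chr2:117121071-117182279) was 169.9 in day 6 EPS shCtrl, 158 in day 6 ES oeYy1, 136 in day 6 ES oeCtrl, 111 in EPS shCtrl, 108 in day 6 EPS shYy1, 91.1 in EPS, 51.2 in ES oeYy1, 50.1 in ES, 44.3 in EPS shYy1 and 34.6 in ES oeCtrl. For Spred1, neighbours overlapped among EPS shCtrl and day 6 EPS shYy1, and among ES oeYy1, ES and EPS shYy1. Spred1 varied 4.91-fold, and the day 6 controls stood highest with ES oeYy1 between them. Mean CPM of Spred2 (chr11:19924442-20024026) was 211 in EPS shCtrl, 132 in day 6 ES oeYy1, 112 in day 6 EPS shCtrl, 112 in EPS shYy1, 95.6 in day 6 ES oeCtrl, 84.0 in ES oeCtrl, 82.4 in day 6 EPS shYy1, 79.6 in ES oeYy1, 79.1 in EPS and 47.7 in ES. For Spred2, neighbours overlapped among day 6 EPS shCtrl and EPS shYy1, and among ES oeCtrl, day 6 EPS shYy1, ES oeYy1 and EPS. Spred2 varied 4.42-fold and was, unlike Spred1, highest in an undifferentiated group, EPS shCtrl, while untransduced EPS and ES had the lowest means. Mean CPM of Il17rd (chr14:27038964-27107286) was 242 in day 6 ES oeYy1, 186 in day 6 EPS shCtrl, 176 in day 6 ES oeCtrl, 134 in day 6 EPS shYy1, 75.9 in EPS, 71.2 in ES oeYy1, 60.2 in ES, 59.5 in EPS shCtrl, 57.7 in ES oeCtrl and 32.1 in EPS shYy1. For Il17rd, neighbours overlapped among EPS and ES oeYy1, and among ES, EPS shCtrl and ES oeCtrl. Il17rd varied 7.55-fold, with every day 6 group above every undifferentiated one.

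In each of the 3 phosphatase genes all 4 day 6 groups stood above all 6 undifferentiated groups. The share of all genes with this order, also seen in Il17rd, was not counted, so it cannot be read as particular to these genes. Mean CPM of Dusp4 (chr8:34807610-34819894) was 326 in day 6 ES oeCtrl, 279.7 in day 6 ES oeYy1, 136 in day 6 EPS shYy1, 92.6 in day 6 EPS shCtrl, 43.5 in EPS, 11.0 in ES, 10.1 in EPS shCtrl, 8.57 in EPS shYy1, 7.32 in ES oeYy1 and 6.98 in ES oeCtrl. For Dusp4, neighbours overlapped among ES, EPS shCtrl, EPS shYy1, ES oeYy1 and ES oeCtrl. Dusp4 varied 46.6-fold, and among undifferentiated groups EPS stood apart from the rest. Mean CPM of Dusp5 (chr19:53529145-53541809) was 136 in day 6 ES oeCtrl, 95.7 in day 6 EPS shYy1, 89.6 in day 6 ES oeYy1, 62.2 in day 6 EPS shCtrl, 35.8 in EPS, 15.3 in ES, 11.7 in EPS shYy1, 11.0 in EPS shCtrl, 6.28 in ES oeYy1 and 5.22 in ES oeCtrl. For Dusp5, neighbours overlapped among ES, EPS shYy1 and EPS shCtrl. Dusp5 varied 26.0-fold, with day 6 and undifferentiated ES oeCtrl at the ends, as in Dusp4. Mean CPM of Dusp6 (chr10:99263231-99267489) was 199.6 in day 6 ES oeYy1, 176 in day 6 ES oeCtrl, 155 in day 6 EPS shCtrl, 98.6 in day 6 EPS shYy1, 62.8 in EPS shCtrl, 35.4 in EPS, 19.2 in EPS shYy1, 18.3 in ES oeYy1, 11.2 in ES and 8.07 in ES oeCtrl. For Dusp6, neighbours overlapped among EPS shYy1 and ES oeYy1. Dusp6 varied 24.7-fold from highest to lowest. Its span overlaps a predicted gene that was not counted.

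**Figure D1:**
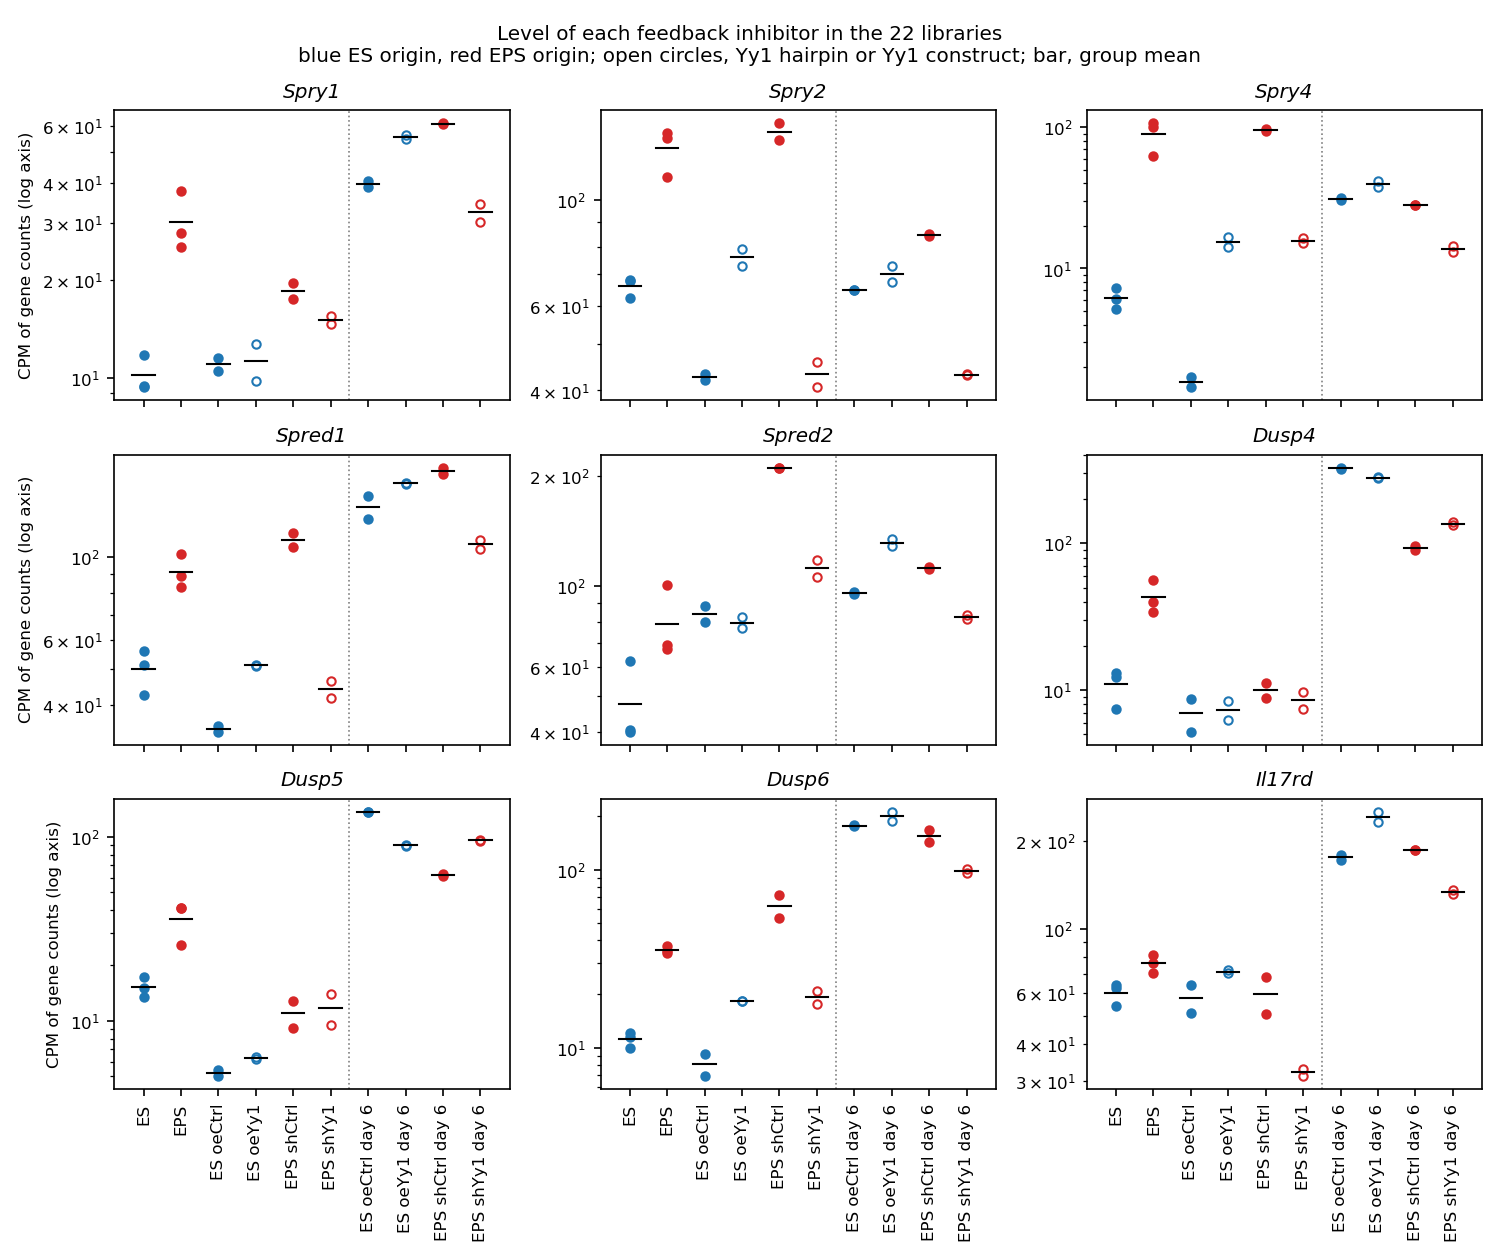
Level of each of the 9 genes in CPM of gene counts (log axis) in the 22 libraries, with points for libraries, bars for group means and a dotted line between undifferentiated and day 6 groups. Spry2 and Spry4 peak in undifferentiated EPS and EPS shCtrl cells and Spred2 in undifferentiated EPS shCtrl cells. Spry1, Spred1, Dusp4, Dusp5, Dusp6 and Il17rd are highest on day 6.

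The first comparison asked how EPS cells differ from ES cells. All 9 inhibitors rose in untransduced EPS cells, with a median log2 change of 1.31 against -0.0050 over all genes. Of the 16440 genes tested 30.6% were called at an adjusted p under 0.05 (edgeR's quasi-likelihood test with Benjamini-Hochberg adjustment), 13.8% higher and 16.9% lower. For all 9 genes the 3 EPS libraries lay above the 3 ES libraries, and the groups did not overlap, in either direction, for 40.9% of all genes. Differences are given as log2 fold changes with their SE.

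Spry4 changed most. Its level was 106, 99.6 and 63.1 CPM in the 3 EPS and 7.26, 6.07 and 5.13 CPM in the 3 ES libraries (log2 3.94 ± 0.21, adjusted p = 2.21e-09), a 15.4-fold difference, with EPS replicate 3 the lowest of its group. Spry1 stood at 25.4, 28.0 and 37.8 against 9.47, 11.8 and 9.37 CPM (log2 1.63 ± 0.16, adjusted p = 8.83e-07). Spry2 stood at 139, 135 and 112 against 67.9, 68.2 and 62.5 CPM (log2 1.03 ± 0.12, adjusted p = 5.44e-06). The 3 Sprouty genes thus differed by 2.04- to 15.4-fold.

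Among the Spred genes the differences were smaller. Spred1 was 82.9, 88.7 and 102 CPM in EPS and 51.4, 42.8 and 56.0 CPM in ES cells (log2 0.93 ± 0.11, adjusted p = 5.32e-06). Spred2 was 69.3, 67.3 and 101 against 40.5, 40.1 and 62.5 CPM (log2 0.79 ± 0.15, adjusted p = 0.000658), and replicate 3 was the highest library in both groups. Il17rd had the smallest difference, 81.3, 70.3 and 76.2 against 62.4, 54.1 and 64.2 CPM (log2 0.40 ± 0.13, adjusted p = 0.0252). Its call was lost without ES replicate 2 (log2 0.34, adjusted p = 0.0961) or EPS replicate 1 (log2 0.32, adjusted p = 0.115).

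All 3 phosphatase genes were higher in EPS cells. Dusp6 was 34.0, 37.2 and 35.0 CPM in EPS and 12.0, 11.5 and 9.96 CPM in ES cells (log2 1.73 ± 0.14, adjusted p = 1.44e-07), with little spread within either group. Dusp4 was 40.0, 34.3 and 56.2 against 12.4, 13.1 and 7.40 CPM (log2 2.03 ± 0.23, adjusted p = 6.48e-06). Dusp5 was 40.9, 40.9 and 25.6 against 13.4, 15.1 and 17.4 CPM (log2 1.31 ± 0.20, adjusted p = 0.000103), with EPS replicate 3 again lowest. Without replicate 3 of both groups 9 of 9 members were still called. Of the 19 tested fibroblast markers 14 were lower in EPS cells (median log2 -1.31) and none was higher, with S100a4 at 0 in both groups. The part of fibroblast RNA in the members' differences was not tested.

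Among other genes of the pathway, ERK-driven transcription factors and targets rose more often than they fell, and most other lists went both ways. Of 17 other feedback regulators tested, 1 rose and 2 fell (median log2 0.11). The named ones were Dusp14, a phosphatase (7.25 against 32.3 CPM, log2 -2.09 ± 0.13, adjusted p = 9.8e-09), and Dusp3, a phosphatase that acts on ERK (30.5 against 21.2 CPM, log2 0.59 ± 0.14, adjusted p = 0.0037). Of 15 ligands of receptor tyrosine kinases, mostly of the FGF and EGF families, 4 rose and 3 fell, and Fgf4, the main FGF of pluripotent cells, fell (227 against 377 CPM, log2 -0.67 ± 0.096, adjusted p = 5.95e-05). Fgf10 fell as well (2.62 against 11.1 CPM, log2 -2.03 ± 0.23, adjusted p = 5.06e-06). Of 14 receptors 2 rose and 6 fell, including Kit, the stem cell factor receptor (105 against 284 CPM, log2 -1.38 ± 0.086, adjusted p = 8.5e-09), and Erbb2 (4.34 against 11.2 CPM, log2 -1.30 ± 0.17, adjusted p = 2.96e-05). Of 25 adaptors and cascade members 4 rose and 4 fell, and Mapk3, which encodes an ERK kinase, rose (65.0 against 41.8 CPM, log2 0.70 ± 0.091, adjusted p = 2.37e-05). Ksr1, of the same list, fell (3.47 against 7.83 CPM, log2 -1.11 ± 0.165, adjusted p = 7.63e-05). Of 23 transcription factors and targets driven by ERK 8 rose and 2 fell, against 13.8% and 16.9% of all genes, with Egr1, an immediate early factor, at 126 against 7.36 CPM, log2 4.18 ± 0.26, adjusted p = 4.45e-08, and Ets2, an ETS factor, at 20.8 against 58.8 CPM, log2 -1.45 ± 0.15, adjusted p = 2.14e-06.

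The control lines gave another comparison of EPS with ES cells in other libraries. These lines differ in Y-linked RNA, as the untransduced cells do, and also in the kind of construct. Here 7 of 9 inhibitors were higher in EPS shCtrl than in ES oeCtrl and none was lower (median log2 1.31), while 40.4% of genes were called, 19.7% higher. Spry4 was 97.1 and 94.2 CPM in EPS shCtrl and 1.44 and 1.70 CPM in ES oeCtrl (log2 5.90 ± 0.31, adjusted p = 8.5e-10). Dusp6 was 72.2 and 53.5 against 9.22 and 6.93 CPM (log2 2.94 ± 0.18, adjusted p = 3.26e-09). Both differences were larger than between the untransduced cells, a contrast that was not itself tested. Spry2, Spred1 and Spred2 differed by log2 1.69 ± 0.15, 1.67 ± 0.13 and 1.31 ± 0.18, with adjusted p = 1.44e-07, 4.91e-08 and 2.35e-05. Spry1 (log2 0.74 ± 0.19, adjusted p = 0.00566) lost its call without ES oeCtrl replicate 1 (adjusted p = 0.063). Dusp5 (log2 1.05 ± 0.27, adjusted p = 0.0058) lost it without EPS shCtrl replicate 1 (adjusted p = 0.0561) or ES oeCtrl replicate 1 (adjusted p = 0.052). Dusp4 (log2 0.51, 95% interval -0.13 to 1.14) and Il17rd (log2 0.032, 95% interval -0.3 to 0.37) were not called. Of the primitive and visceral endoderm markers, 11 of 15 tested were higher in EPS shCtrl and 2 lower, with sums of 592.2 to 614.5 against 908 to 929.5 CPM and Afp and Ttr at 0 in both groups. Their part in these values was not tested.

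**Figure D2:**
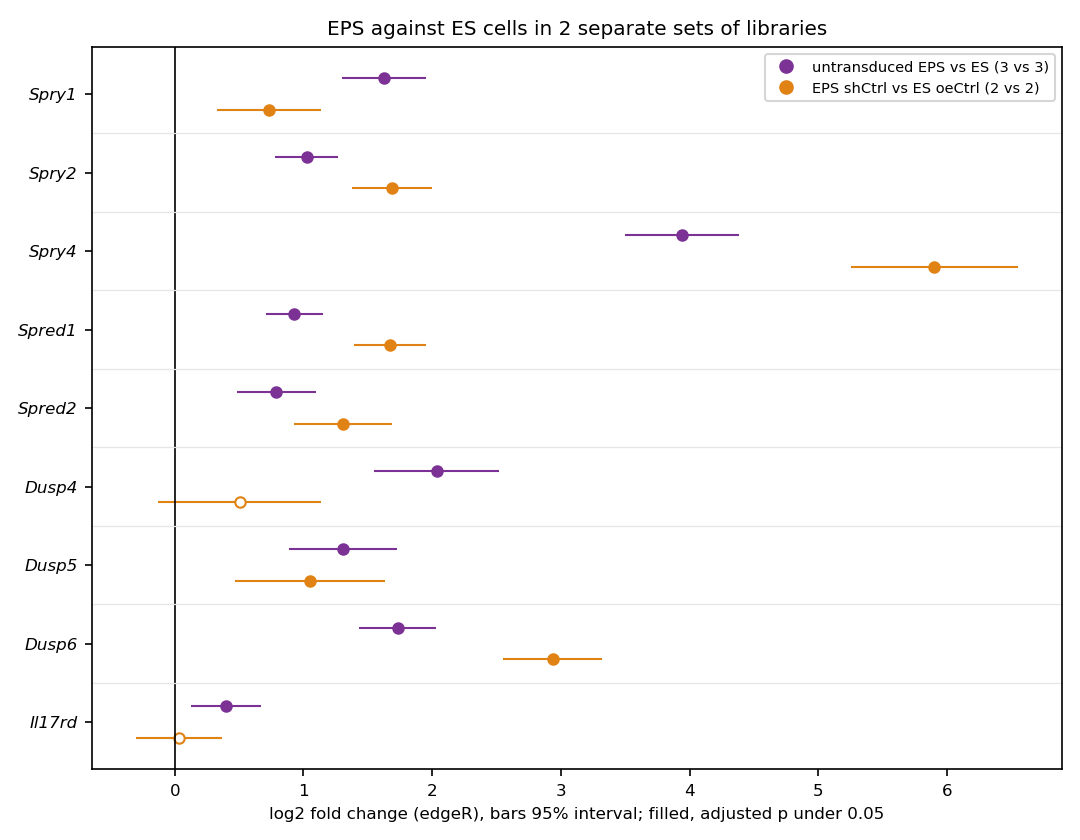
Log2 fold change of each gene between EPS and ES cells, in untransduced cells (3 against 3 libraries) and in control lines (2 against 2), with 95% intervals and filled points at an adjusted p under 0.05. All 9 genes are higher in untransduced EPS cells, and Dusp4 and Il17rd are not called in the control lines.

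Control lines also differed from untransduced cells of the same kind, in which 56.4% of genes were called between EPS shCtrl and EPS and 50.6% between ES oeCtrl and ES. In EPS shCtrl 2 inhibitors were higher and 4 lower than in EPS, against 28.9% and 27.4% of all genes. Dusp4 fell from 40.0, 34.3 and 56.2 to 11.2 and 8.88 CPM (log2 -2.24 ± 0.27, adjusted p = 3.68e-06) and Dusp5 from 40.9, 40.9 and 25.6 to 12.9 and 9.17 CPM (log2 -1.86 ± 0.24, adjusted p = 5.78e-06). Spred2 rose to 210.3 and 211 CPM (log2 1.29 ± 0.16, adjusted p = 4.09e-06) and Dusp6 to 72.2 and 53.5 CPM (log2 0.68 ± 0.15, adjusted p = 0.000782). Spry1 also fell, with a log2 difference of -0.83 ± 0.17 (adjusted p = 0.000547). Il17rd fell with one of -0.48 ± 0.15 (adjusted p = 0.00949), a call lost without EPS shCtrl replicate 1 (log2 -0.245, adjusted p = 0.202). Scaling by library totals in place of TMM shifted this comparison by 0.14 on the log2 scale.

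In ES oeCtrl 1 inhibitor was higher and 6 were lower than in ES, against 25.5% and 25.1% of all genes. Spry4 fell from 7.26, 6.07 and 5.13 to 1.44 and 1.70 CPM (log2 -2.02 ± 0.32, adjusted p = 6.87e-05) and Dusp5 from 13.4, 15.1 and 17.4 to 5.02 and 5.43 CPM (log2 -1.60 ± 0.26, adjusted p = 6.81e-05). Spry2 (-0.69 ± 0.13), Spred1 (-0.58 ± 0.12), Dusp4 (-0.71 ± 0.28, adjusted p = 0.0403) and Dusp6 (-0.52 ± 0.17, adjusted p = 0.0171) also fell, and Spred2 rose (log2 0.77 ± 0.16). The call of Dusp4 was lost without TMM (adjusted p = 0.078), in a fit of these libraries alone (adjusted p = 0.0549) and without ES replicate 1, ES replicate 2 or ES oeCtrl replicate 2 (adjusted p = 0.111, 0.136 and 0.362). That of Dusp6 was lost without ES replicate 1 (adjusted p = 0.0588) or ES oeCtrl replicate 2 (adjusted p = 0.219). Fibroblast markers moved with both comparisons, 17 of 19 tested being lower in EPS shCtrl than in EPS (median log2 -6.20) and 18 of 19 lower and 1 higher in ES oeCtrl than in ES (median log2 -8.99). Their sums were 1359 to 1599 CPM in EPS shCtrl and 2234 to 2688 CPM in ES oeCtrl, with Twist2 and S100a4 at 0 in both, Lum at 0 in EPS shCtrl and Lox in ES oeCtrl. ERK-driven transcription factors and targets fell as well, 13 of 23 in EPS shCtrl (3 rose, median log2 -2.25) and 18 of 23 in ES oeCtrl (none rose, median log2 -1.62). The part of fibroblast RNA in the members' changes was not tested.

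The next comparison asked what changed when Yy1 was depleted in undifferentiated EPS cells. Of the 9 inhibitors 6 fell and none rose, with a median log2 change of -0.98 against -0.013 over all genes. The background was 28.5% of 16440 genes called and 13.3% called lower. Spry2, Spry4, Spred1, Spred2, Dusp6 and Il17rd fell, and Spry1, Dusp4 and Dusp5 were not called. Without either EPS shCtrl library 6 inhibitors were still called.

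Spry4 had the largest change, from 97.1 and 94.2 CPM in EPS shCtrl to 16.4 and 15.1 CPM in EPS shYy1 (log2 -2.67 ± 0.24, adjusted p = 6.97e-07). Spry2 went from 134 and 145 to 45.9 and 40.6 CPM (log2 -1.75 ± 0.15, adjusted p = 2.74e-07). Spry1, by contrast, was 19.7 and 17.6 CPM with the control and 14.6 and 15.5 CPM with the Yy1 hairpin (log2 -0.37, 95% interval -0.76 to 0.03, adjusted p = 0.16). The libraries of Spry1 did not overlap either, as was the case for 65.7% of all genes.

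Spred1 fell from 107 and 116 to 42.0 and 46.6 CPM (log2 -1.40 ± 0.13, adjusted p = 9.02e-07) and Spred2 from 210.3 and 211 to 118 and 106 CPM (log2 -0.98 ± 0.18, adjusted p = 0.000638). Il17rd fell from 50.8 and 68.1 to 33.0 and 31.2 CPM (log2 -0.96 ± 0.16, adjusted p = 0.000319). The cytoplasmic phosphatase gene Dusp6 fell from 72.2 and 53.5 to 20.9 and 17.6 CPM (log2 -1.77 ± 0.17, adjusted p = 1.24e-06). The nuclear ones overlapped between groups. Dusp4 stood at 11.2 and 8.88 CPM with the control and 9.73 and 7.41 CPM with the Yy1 hairpin (log2 -0.29, 95% interval -0.92 to 0.33). Dusp5 stood at 12.9 and 9.17 CPM with the control and 13.9 and 9.45 CPM with the Yy1 hairpin (log2 0.022, 95% interval -0.52 to 0.57). These intervals still allow changes of -0.92 for Dusp4 and of 0.57 for Dusp5 on the log2 scale. Both genes already stood lower in EPS shCtrl than in untransduced EPS cells (means of 10.1 against 43.5 and 11.0 against 35.8 CPM). Spred2 with the Yy1 hairpin stayed above untransduced EPS cells (means of 112 against 79.1 CPM).

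In the wider pathway the changes went both ways. Of 17 other feedback regulators 4 rose and 2 fell, with Dusp9, an X-linked ERK phosphatase gene, up (553 against 181 CPM, log2 1.56 ± 0.17, adjusted p = 4.05e-06) and Spred3, the third Spred gene, down (5.92 against 17.1 CPM, log2 -1.59 ± 0.20, adjusted p = 2.16e-05). Of 15 ligands 2 rose and none fell, Fgf4 among them (349 against 148 CPM, log2 1.18 ± 0.12, adjusted p = 2.2e-06). Of 14 receptors 5 rose, Kit included (389.7 against 164 CPM, log2 1.18 ± 0.11, adjusted p = 5.19e-07), and 1 fell, Pdgfra, a receptor for platelet-derived growth factor (3.36 against 10.0 CPM, log2 -1.63 ± 0.40, adjusted p = 0.00559). The call of Pdgfra was lost without EPS shYy1 replicate 2 (adjusted p = 0.0622). Of 25 cascade members 4 rose and 4 fell, among them the ERK-activated kinase gene Rps6ka3 (111 against 53.1 CPM, log2 1.00 ± 0.16, adjusted p = 0.000232) and the adaptor gene Gab1 (263 against 382 CPM, log2 -0.60 ± 0.12, adjusted p = 0.0013). Of 23 ERK-driven factors and targets 5 rose and 6 fell. Myc, a growth-promoting factor (8.70 against 65.4 CPM, log2 -2.97 ± 0.22, adjusted p = 6.29e-08), and Etv1, an ETS factor (8.69 against 33.3 CPM, log2 -2.005 ± 0.16, adjusted p = 1.54e-07), were among those that fell. Primitive and visceral endoderm markers were lower in 9 of 15 and higher in 1 (sums of 653.7 to 656.9 against 592.2 to 614.5 CPM, Ttr at 0 in both groups and Afp in EPS shCtrl). Fibroblast markers were higher in 6 of 19 and lower in none (sums of 2078 to 2185 against 1359 to 1599 CPM, Twist2 and S100a4 at 0 in both). Their part in the members' values was not tested.

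The converse comparison asked what the Yy1 construct changed in undifferentiated ES cells. Spry2, Spry4, Spred1 and Dusp6 rose, no inhibitor fell and 5 were not called, with a median log2 change of 0.30 against 0.012 over all genes. The background was 32.0% of genes called and 14.8% called higher. Each of these 4 genes was also among the 6 that fell with the hairpin in EPS cells. Both comparisons use different libraries but come from the same fit and share its estimate of the spread. The share of all genes called on these opposite sides was not counted, so the overlap cannot be read as particular to these genes.

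Spry4 rose from 1.44 and 1.70 to 14.1 and 16.6 CPM (log2 3.28 ± 0.32, adjusted p = 1.44e-06), a 9.69-fold change that left it below EPS cells. Dusp6 rose from 9.22 and 6.93 to 18.2 and 18.3 CPM (log2 1.18 ± 0.18, adjusted p = 0.000121). Spry2 rose from 43.3 and 42.1 to 73.0 and 78.9 CPM (log2 0.83 ± 0.15, adjusted p = 0.000356) and Spred1 from 34.0 and 35.2 to 51.3 and 51.1 CPM (log2 0.56 ± 0.13, adjusted p = 0.00345). In all 4 the construct libraries lay above the control libraries, and 74.4% of all genes had groups apart in 1 direction or the other. Il17rd was 51.4 and 63.9 CPM with the control and 72.1 and 70.3 CPM with the construct (log2 0.30, adjusted p = 0.166) and was called in 1 of the alternative fits, the one of these 4 libraries alone (adjusted p = 0.0132). Spry1 (log2 0.026, 95% interval -0.39 to 0.44), Spred2 (-0.085, -0.46 to 0.29), Dusp4 (0.072, -0.58 to 0.72) and Dusp5 (0.26, -0.34 to 0.86) were not called.

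Other feedback regulators went both ways, 4 of 17 up and 2 down, and here Spred3 rose (19.0 against 6.54 CPM, log2 1.53 ± 0.20, adjusted p = 2.13e-05) while Dusp9 fell (18.1 against 44.9 CPM, log2 -1.31 ± 0.18, adjusted p = 4.01e-05). Of 15 ligands 2 rose and 3 fell, among them Pdgfa, a platelet-derived growth factor (105 against 48.0 CPM, log2 1.12 ± 0.20, adjusted p = 0.000547), and Hbegf, an EGF family ligand (3.02 against 11.6 CPM, log2 -1.94 ± 0.35, adjusted p = 0.000514). Of 14 receptors 3 rose and 3 fell. Erbb3, of the EGF receptor family, fell (41.0 against 74.8 CPM, log2 -0.87 ± 0.19, adjusted p = 0.00221), and Igf1r, an insulin-like growth factor receptor gene, rose (49.7 against 25.0 CPM, log2 0.98 ± 0.24, adjusted p = 0.00491). The latter call was lost without ES oeCtrl replicate 1 (adjusted p = 0.0532) or ES oeYy1 replicate 2 (adjusted p = 0.0577). Of 25 cascade members 1 rose and 5 fell, Gab1 (204 against 481 CPM, log2 -1.25 ± 0.12, adjusted p = 1.23e-06) and the kinase gene Rps6ka1 (167 against 237 CPM, log2 -0.51 ± 0.099, adjusted p = 0.000737) among the latter. Of 23 ERK-driven factors and targets 6 rose and 5 fell, and Etv1 (50.3 against 5.25 CPM, log2 3.25 ± 0.17, adjusted p = 2.43e-09) and Myc (19.0 against 1.14 CPM, log2 4.04 ± 0.28, adjusted p = 3.94e-08) were among those that rose. Smooth muscle and mesenchyme markers were higher in 5 of 10 and lower in none (sums of 284.3 to 286.9 against 111 to 124.7 CPM, none at 0). Epiblast and mesendoderm markers were lower in 3 of 7 and higher in 1 (sums of 25.4 to 25.8 against 81.4 to 81.7 CPM, with Mesp1, Lhx1 and Cer1 at 0 in both groups). Fibroblast markers were higher in 4 of 19 and lower in 1, with a median log2 of 1.83 although their sum was lower (1448 to 1559 against 2234 to 2688 CPM, Twist2 and S100a4 at 0 in both and Lox in ES oeCtrl). Their part was not tested.

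**Figure D3:**
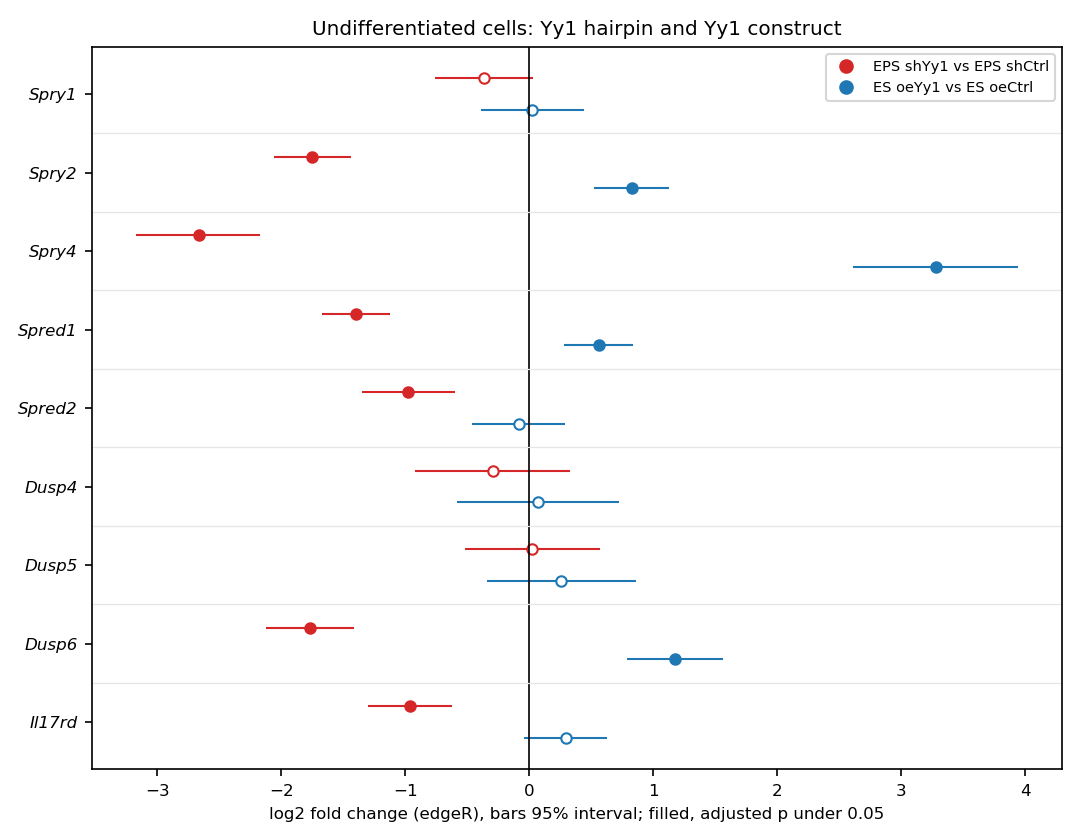
Log2 fold change of each gene in undifferentiated cells for the Yy1 hairpin in EPS cells and the Yy1 construct in ES cells (2 against 2 libraries each), with 95% intervals and filled points at an adjusted p under 0.05. Spry2, Spry4, Spred1 and Dusp6 are called on opposite sides of 0 in the 2 comparisons.

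The lines were then compared between day 6 of F4H and the undifferentiated state. All 9 inhibitors rose in ES oeCtrl (median log2 1.98, 73.0% of 17207 genes called, 37.1% higher). In ES oeYy1 8 rose and none fell (72.7% called, 35.7% higher and 36.9% lower). Spry2 was not called there (log2 -0.18 ± 0.088, adjusted p = 0.0635), except in a fit of these libraries alone (log2 -0.15, adjusted p = 0.0359). In EPS shCtrl 6 rose and 3 fell (74.1% called, 37.5% higher and 36.6% lower), and in the libraries labelled EPS shYy1 6 rose and 1 fell (75.4% called, 37.9% higher and 37.4% lower). With backgrounds this high, a count of calls says little about these genes, and the sizes are given instead. Trophoblast markers summed to 124.2 to 225.2 CPM over all undifferentiated libraries and to 3351 to 6497 CPM over all day 6 libraries. Depending on the line, 8 to 9 of 10 trophoblast markers were higher and 1 to 2 lower. For fibroblasts 15 to 18 of 19 were higher and 0 to 1 lower. For smooth muscle and mesenchyme 8 to 9 of 10 were higher and 1 lower. For epiblast and mesendoderm 7 to 9 of 10 were higher and 1 to 2 lower. For primitive and visceral endoderm 9 to 13 of 15 were higher and 1 to 5 lower. For neuroectoderm 1 to 2 of 6 were higher and 1 to 4 lower. The part of these cell types was not tested. Scaling by library totals moved the EPS shCtrl comparison by 0.14 on the log2 scale.

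In ES oeCtrl the phosphatase genes had the largest rises. Dusp4 went from 8.73 and 5.23 to 324 and 328 CPM (log2 5.55 ± 0.15). Dusp5 went from 5.02 and 5.43 to 136 and 136 CPM (4.70 ± 0.14) and Dusp6 from 9.22 and 6.93 to 178 and 175 CPM (4.46 ± 0.13). In EPS shCtrl the same genes rose by 3.07 ± 0.14, 2.37 ± 0.12 and 1.17 ± 0.10. Day 6 libraries lay above undifferentiated ones in both lines for these 3 genes. Groups were apart, in either direction, for 86.5% of all genes in ES oeCtrl and 84.6% in EPS shCtrl. In the libraries labelled EPS shYy1 the rises were 4.05 ± 0.14, 3.10 ± 0.12 and 2.42 ± 0.12, and in ES oeYy1 5.18 ± 0.15, 3.76 ± 0.14 and 3.38 ± 0.12. Il17rd rose by 1.61 ± 0.13 in ES oeCtrl, 1.70 ± 0.13 in ES oeYy1, 1.498 ± 0.13 in EPS shCtrl and 2.11 ± 0.13 in EPS shYy1.

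The Sprouty genes differed among themselves. Spry1 rose in all 4 lines, by log2 1.85 in ES oeCtrl, 2.23 in ES oeYy1, 1.57 in EPS shCtrl and 1.15 in EPS shYy1. Spry4 rose in ES oeCtrl from 1.44 and 1.70 to 31.6 and 30.6 CPM (log2 4.30 ± 0.16, adjusted p = 3.9e-16) and fell in EPS shCtrl from 97.1 and 94.2 to 28.2 and 27.9 CPM (log2 -1.91 ± 0.099, adjusted p = 1.96e-13). The day 6 levels of both control lines lay close together. Spry4 rose in ES oeYy1 as well (log2 1.30 ± 0.11) and was not called in the libraries labelled EPS shYy1 (-0.15 ± 0.12). Spry2 rose in ES oeCtrl (log2 0.61 ± 0.090) and fell in EPS shCtrl (-0.86 ± 0.084). Spred2 fell in EPS shCtrl (log2 -1.05 ± 0.077) and in the libraries labelled EPS shYy1 (-0.39 ± 0.079). Its rise in ES oeCtrl was 0.19 ± 0.079 (adjusted p = 0.0375), a call lost without ES oeCtrl replicate 1 (adjusted p = 0.356) or either day 6 ES oeCtrl library (adjusted p = 0.0869 and 0.101). Spred1 rose in every line, most in ES oeCtrl (log2 1.98 ± 0.092) and least in EPS shCtrl (0.47 ± 0.084).

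A test of the difference itself showed that the response to F4H was lower in EPS shCtrl than in ES oeCtrl for 7 of 9 genes and higher for none, against a background of 48.7% of genes called and 25.9% called lower. Spry4 differed most (log2 -6.21 ± 0.18, adjusted p = 7.5e-16), followed by Dusp6 (log2 -3.29 ± 0.17, adjusted p = 3.77e-12). Spry1 (log2 -0.28, 95% interval -0.61 to 0.05) and Il17rd (-0.11, -0.48 to 0.26) were not called, and Il17rd was called without EPS shCtrl replicate 1 (log2 -0.33, adjusted p = 0.0113). Scaling by library totals shifted this contrast by 0.14. These lines had started at unequal levels, higher in EPS shCtrl for 7 of the 9 genes.

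**Figure D4:**
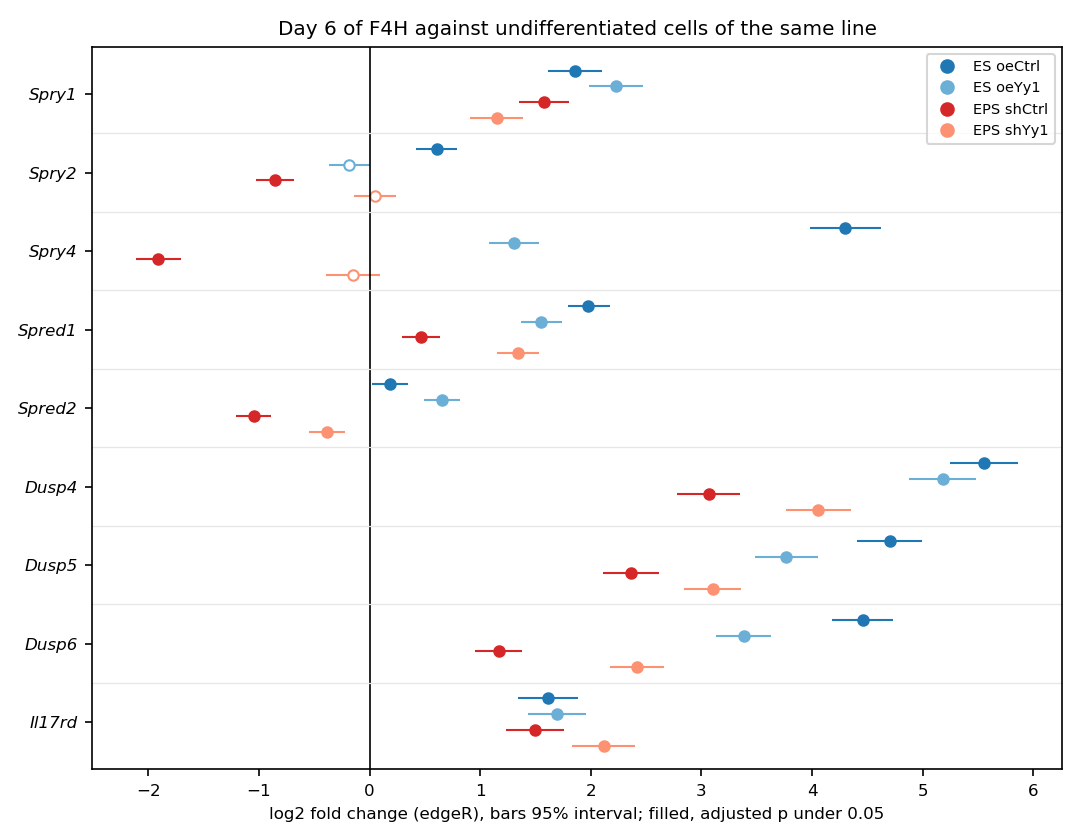
Log2 fold change of each gene from the undifferentiated state to day 6 of F4H in 4 lines (2 against 2 libraries each), with 95% intervals and filled points at an adjusted p under 0.05. Dusp4, Dusp5 and Dusp6 rise in all 4 lines, and Spry2, Spry4 and Spred2 fall in EPS shCtrl.

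On day 6 the control lines of EPS and ES origin differed in 64.1% of genes, and 3 inhibitors were higher and 4 lower in the EPS line, against 31.6% and 32.4% of all genes. Dusp4 was 95.6 and 89.6 CPM in the EPS line and 324 and 328 CPM in the ES line (log2 -1.96 ± 0.047, adjusted p = 2.22e-41), and Dusp5 was 62.95 and 61.5 against 136 and 136 CPM (log2 -1.27 ± 0.053, adjusted p = 1.16e-29). Both nuclear phosphatase genes were therefore lower in the EPS line on day 6, having been higher (Dusp5) or not called (Dusp4) in the undifferentiated control lines. Dusp6 (-0.34 ± 0.054) was lower as well. Spry1 (0.47 ± 0.070) and Spry2 (0.24 ± 0.059) were higher. Calls of Spry4 (log2 -0.30) and Spred1 (0.17) were less stable. That of Spry4 was lost with library totals in place of TMM (log2 -0.15, adjusted p = 0.107), which shifted this comparison by 0.15, and Spred2 was then called (log2 0.23, adjusted p = 7.24e-05). That of Spred1 was lost without the first EPS library (adjusted p = 0.0531) or the first ES library (adjusted p = 0.263). Cell type markers differed between these lines, with sums in the EPS and the ES line of 3351 to 3355 and 5637 to 5689 CPM for trophoblast (3 of 10 higher, 6 lower, Tpbpa at 0 in all 4 libraries) and 1661 to 1662 and 3538 to 3680 CPM for smooth muscle and mesenchyme (5 of 10 higher, 5 lower, none at 0). Of the 10 pluripotency markers 9 were lower and 1 higher (sums of 475.7 to 476.9 and 466.8 to 477.5 CPM, none at 0). Their part in the members' differences was not tested.

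The hairpin libraries of day 6 are described under their label, since Yy1 was not called lower in them with TMM. All 9 inhibitors were called between the libraries labelled EPS shYy1 and EPS shCtrl, 7 lower and 2 higher, in a comparison in which 61.3% of 15927 genes were called, 30.9% higher and 30.4% lower. The receptor-level inhibitors were all lower. Spry1 was 30.4 and 34.5 CPM against 61.0 and 61.0 (log2 -0.78 ± 0.072, adjusted p = 1.84e-14). Spry2 was 43.4 and 43.0 CPM against 85.1 and 84.4 (log2 -0.84 ± 0.062, adjusted p = 3.93e-18). Spry4 was 13.04 and 14.4 CPM against 28.2 and 27.9 (log2 -0.90 ± 0.095, adjusted p = 1.72e-12). The Sprouty genes were thus lower by similar amounts, -0.78 to -0.90 on the log2 scale. Their libraries did not overlap, as was the case, in either direction, for 81.1% of all genes in this comparison. Spred1 was 111 and 105 CPM against 173 and 167 (log2 -0.52 ± 0.052, adjusted p = 7.69e-13). Spred2 was 83.6 and 81.2 against 112 and 113 CPM (log2 -0.31 ± 0.052, adjusted p = 5.48e-07) and Il17rd 132 and 136 against 186 and 186 CPM (log2 -0.34 ± 0.047, adjusted p = 5.96e-09). These were smaller differences, also without overlap. Dusp6 was 101 and 96.2 against 166 and 143 CPM (log2 -0.51 ± 0.057, adjusted p = 4.08e-10).

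The nuclear phosphatase genes went the other way. Dusp4 was 133 and 139 CPM in the libraries labelled shYy1 and 95.6 and 89.6 CPM in shCtrl (log2 0.69 ± 0.049, adjusted p = 5.69e-19). Dusp5 was 95.3 and 96.1 against 62.95 and 61.5 CPM (log2 0.75 ± 0.054, adjusted p = 1.09e-18). Scaling by library totals moved this comparison by -0.13 on the log2 scale and gave Yy1 a log2 change of -0.17 (adjusted p = 0.00231), with 9 members still called. The summed trophoblast markers were 6416 to 6497 CPM in the libraries labelled shYy1 and 3351 to 3355 CPM in shCtrl, with Tpbpa at 0 in all 4, and 6 of 10 were higher and 3 lower. Smooth muscle and mesenchyme markers summed to 3340 to 3348 and 1661 to 1662 CPM, 6 of 10 higher and 4 lower, and epiblast and mesendoderm markers to 264.7 to 290.9 and 546.4 to 569.6 CPM, 2 of 10 higher and 7 lower, with none of these at 0. The part of these cell types in the members' differences was not tested.

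With the Yy1 construct on day 6, 6 inhibitors were higher and 2 lower than in ES oeCtrl, where 41.9% of genes were called, 20.3% higher and 21.6% lower. Here Dusp4 and Dusp5 were the lower ones. Dusp5 was 90.3 and 88.9 CPM against 136 and 136 (log2 -0.64 ± 0.052, adjusted p = 8.26e-16) and Dusp4 282 and 277 against 324 and 328 (log2 -0.26 ± 0.044, adjusted p = 1.53e-06). Both pairs of groups were apart, as was the case, in either direction, for 67.8% of all genes. Spry1 was 56.1 and 54.6 against 40.6 and 39.0 CPM (log2 0.43 ± 0.073, adjusted p = 1.43e-06). Spred2 was 129 and 134 against 95.1 and 96.2 CPM (log2 0.42 ± 0.052, adjusted p = 8.18e-10). Il17rd was 251 and 233 against 173 and 179 CPM (log2 0.42 ± 0.046, adjusted p = 2.33e-11). These 3 had the largest rises of the 9. Spry4 differed by log2 0.31 ± 0.082 (adjusted p = 0.00135) and Spry2 by 0.070 ± 0.062 (not called).

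Calls of Spred1 and Dusp6 in this comparison were not stable. Spred1 was 158 and 157 against 126 and 146 CPM (log2 0.17 ± 0.052, adjusted p = 0.00602), and its call was lost without ES oeCtrl replicate 1 (adjusted p = 0.335) and with DESeq2 (adjusted p = 0.0514). Dusp6 was 211 and 189 against 178 and 175 CPM (log2 0.14 ± 0.054, adjusted p = 0.0397). Its call was lost with DESeq2 (adjusted p = 0.15) and without ES oeCtrl replicate 1, ES oeCtrl replicate 2 or ES oeYy1 replicate 1 (adjusted p = 0.134, 0.221 and 0.462). Trophoblast markers summed to 3390 to 3538 CPM in ES oeYy1 and 5637 to 5689 CPM in ES oeCtrl, 4 of 10 being higher and 5 lower and Tpbpa at 0 in all 4 libraries. Smooth muscle and mesenchyme markers summed to 2301 to 2362 and 3538 to 3680 CPM, 4 of 10 higher and 5 lower and none at 0. Their part was not tested.

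**Figure D5:**
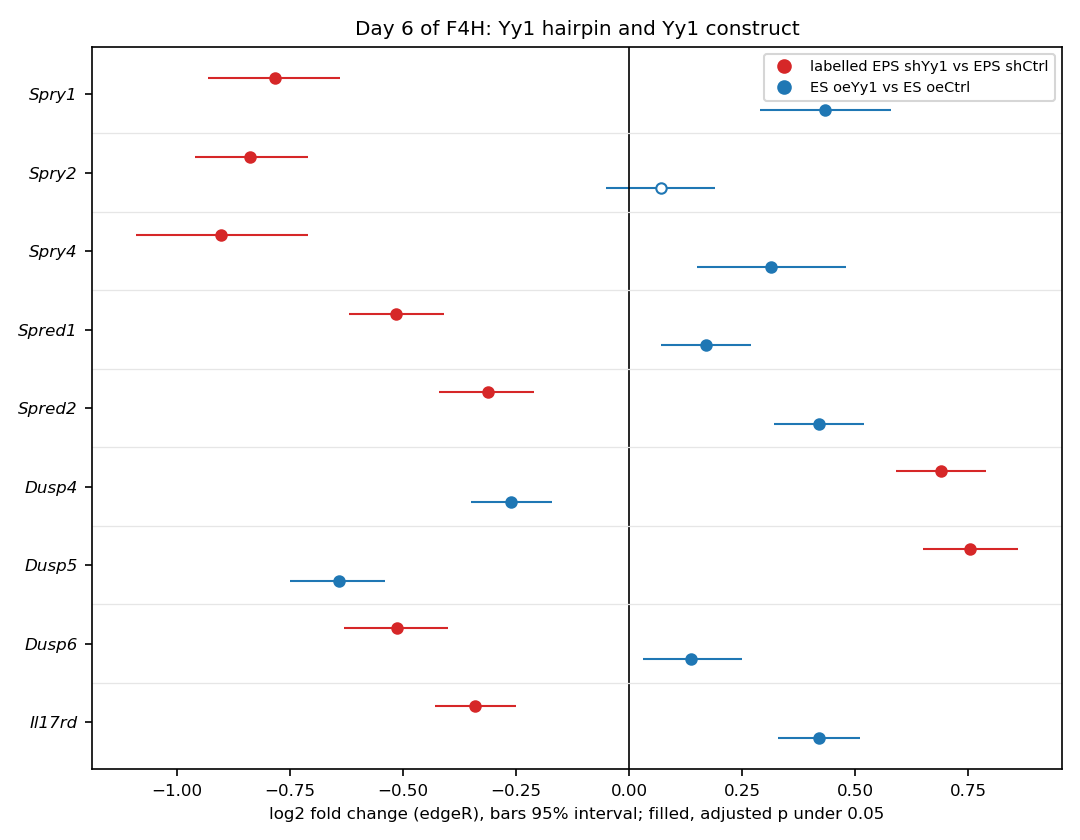
Log2 fold change of each gene on day 6 of F4H for the libraries labelled EPS shYy1 against EPS shCtrl and for ES oeYy1 against ES oeCtrl (2 against 2 libraries each), with 95% intervals and filled points at an adjusted p under 0.05. Dusp4 and Dusp5 lie on the side of 0 opposite to the other called genes in both comparisons.

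Among other pathway genes on day 6, 13 of 18 feedback regulators were higher and 3 lower in the libraries labelled EPS shYy1, with Errfi1, an inhibitor of the EGF receptor (291 against 123 CPM, log2 1.38 ± 0.046, adjusted p = 3.07e-34), and Dusp3 (58.1 against 15.3 CPM, log2 2.06 ± 0.082, adjusted p = 2.21e-30) both up. Ligands went both ways (4 of 13 higher, 7 lower), Fgf8 being lower (35.0 against 177 CPM, log2 -2.20 ± 0.058, adjusted p = 5.12e-39) and Hbegf higher (99.8 against 39.0 CPM, log2 1.49 ± 0.062, adjusted p = 1.61e-29). Of 12 receptors 4 were higher and 8 lower, with Egfr at 146 against 61.4 CPM, log2 1.39 ± 0.053, adjusted p = 3.97e-31, and Pdgfra at 14.1 against 67.4 CPM, log2 -2.11 ± 0.088, adjusted p = 2.11e-29. Of 25 cascade members 15 were higher and 4 lower, and of 24 ERK-driven factors and targets 12 were higher and 10 lower. Mapk3 (61.8 against 161 CPM, log2 -1.25 ± 0.055, adjusted p = 3.3e-28), Egr1 (58.3 against 274 CPM, log2 -2.10 ± 0.053, adjusted p = 2.5e-39) and the immediate early gene Fos (58.7 against 199.7 CPM, log2 -1.63 ± 0.052, adjusted p = 4.27e-35) were lower, and Gab1 was higher (144 against 76.5 CPM, log2 1.05 ± 0.050, adjusted p = 8.84e-27).

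With the construct on day 6, 5 of 18 feedback regulators were higher and 7 lower. Errfi1 (184 against 254 CPM, log2 -0.51 ± 0.045, adjusted p = 3.05e-14) and Dusp3 (32.3 against 55.1 CPM, log2 -0.81 ± 0.077, adjusted p = 2.04e-13) were lower here. Of 13 ligands 6 were higher and 4 lower, with Fgf8 (112 against 39.5 CPM, log2 1.46 ± 0.060, adjusted p = 1.4e-28) and Fgf10 (51.3 against 13.03 CPM, log2 1.94 ± 0.094, adjusted p = 2.21e-25) higher. Of 12 receptors 5 were higher and 4 lower, and both Egfr (85.5 against 134 CPM, log2 -0.68 ± 0.053, adjusted p = 1.45e-16) and Met, the hepatocyte growth factor receptor gene (23.4 against 42.7 CPM, log2 -0.90 ± 0.088, adjusted p = 5.65e-13), were lower. Of 25 cascade members 6 were higher and 8 lower, the kinase gene Braf (179.5 against 104 CPM, log2 0.75 ± 0.049, adjusted p = 1.47e-19) and Mapk3 (111 against 65.6 CPM, log2 0.71 ± 0.057, adjusted p = 6.61e-16) being higher. Of 24 ERK-driven factors and targets 13 were higher and 6 lower, with Egr1 (323 against 63.4 CPM, log2 2.31 ± 0.052, adjusted p = 1.97e-40) and Fos (152 against 47.7 CPM, log2 1.63 ± 0.055, adjusted p = 9.22e-33) higher.

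Whether the effect of each manipulation differed between stages was tested directly. The difference between the Yy1 hairpin and control libraries was called as changed between stages for 9 of 9 genes, higher on day 6 for 8 and lower for Spry1, with a background of 41.5% of genes called, 21.4% higher and 20.1% lower. Spry4 changed most (log2 1.76 ± 0.15, adjusted p = 1.43e-08), from log2 -2.67 undifferentiated to -0.90 on day 6 in the separate fits. Scaling by library totals shifted this contrast by -0.19. For Spry1 (log2 -0.42 ± 0.16, adjusted p = 0.0357) the call was lost with DESeq2 (adjusted p = 0.0567), in a fit of the libraries compared (adjusted p = 0.0528) and without EPS shYy1 replicate 2, either day 6 EPS shCtrl library or the first day 6 EPS shYy1 library (adjusted p = 0.127, 0.0749, 0.0976 and 0.155). Il17rd (log2 0.62 ± 0.18, adjusted p = 0.0109) lost it without EPS shYy1 replicate 2 (adjusted p = 0.0562).

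The effect of the construct was lower on day 6 for 5 genes and higher for Spred2, with 37.6% of genes called and 19.9% called lower. Spry4 again changed most (log2 -3.00 ± 0.20, adjusted p = 7.87e-10). Dusp6 (-1.08 ± 0.18), Dusp5 (-0.94 ± 0.21) and Spry2 (-0.79 ± 0.13) followed. Spred1 (log2 -0.43 ± 0.13, adjusted p = 0.0112) lost its call without either undifferentiated ES oeYy1 library (adjusted p = 0.0524 and 0.0504) or without day 6 library 2 of ES oeCtrl (adjusted p = 0.0773). Spry1 was not called (log2 0.37 ± 0.17, adjusted p = 0.0873) but was with library totals, in a fit of the libraries compared and without ES oeYy1 replicate 1 (adjusted p = 0.0471, 0.0406 and 0.0154), and Dusp4 (log2 -0.37 ± 0.22, adjusted p = 0.194) was called without ES oeCtrl replicate 1 (adjusted p = 0.0097). Yy1 itself was less raised on day 6 (log2 -1.60 ± 0.096, adjusted p = 1.56e-10).

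Pearson correlations of log2 CPM, here scaled by TMM factors, over the 10 group means describe how far the genes shared a pattern. They carry no test, since groups share lines and stages and each mean rests on 2 or 3 libraries. Over the 36 pairs of members r ran from 0.01 to 0.976 with a median of 0.609, and 17 pairs reached 0.7. Dusp4 and Dusp5 were the closest pair (r = 0.976), followed by Spred1 and Dusp6 (r = 0.96). Spry2 was least like Dusp4 (r = 0.01) and Dusp5 (r = 0.028), and closest to Spry4 (r = 0.766).

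Among 10547 other genes with a mean of at least 5 CPM, those most like Dusp6 were Vrtn (r = 0.983), Epha1 (0.983) and Tcaf2 (0.98), and those most like Dusp5 were Abracl (0.988), Col7a1 (0.981) and Metrnl (0.978). Dusp4 was closest to Psors1c2 (0.975), Mcoln3 (0.974) and Col7a1 (0.974). For the Sprouty genes they were Jph1, Uhrf2 and Ttc21b for Spry1 (0.965, 0.961 and 0.957), Mrrf, B3gnt7 and Ctsz for Spry2 (0.937, 0.906 and 0.894) and Slc39a14, Ankrd33b and Celf4 for Spry4 (0.934, 0.923 and 0.912). Spred1 was closest to Tcaf2, Jph1 and Mapk11 (0.971, 0.962 and 0.958), Spred2 to Sfswap, Ldlrad3 and Rbm33 (0.937, 0.919 and 0.906) and Il17rd to Tgfb1, Rprm and Ecscr (0.96, 0.96 and 0.959). All are over 10 group means. Under rank correlation none of the 3 genes named for Spry1, Spred1, Dusp4 and Dusp6 was among the nearest 3, and 1 of 3 was for each other member.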

How the data were processed

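RNA was counted in 22 libraries, 3 each for ES and EPS cells and 2 for each of 8 other groups, assigned by their titles. The values are whole-number read counts per gene symbol as deposited by the authors, not normalized. Tools listed in the submitters' processing notes are Bowtie2 2.3.2 and CASAVA, with the builds GRCm38.p6 and mm10, and the counting tool and its strand setting are not given in the sources used here. Reads outside genes (5.61 to 8.62%), ambiguous reads (3.70 to 5.32%) and reads aligned more than once (5.45 to 6.66%) stayed out of library totals. The other 41 of 63 samples were not analysed here.

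CPM were computed from totals of gene counts. The 3 edgeR 4.0.16 models (R 4.3.3, TMM, filterByExpr, robust quasi-likelihood F-test) held the 14 undifferentiated libraries, the 8 day 6 libraries and the 16 libraries of construct lines at both stages. SE is the absolute log2 fold change over the root of F, and calls used a Benjamini-Hochberg adjusted p under 0.05 over all genes of a comparison. DESeq2 1.42.0 and the fits named in the closing section were alternatives. The models were tested on simulated data. The 16 comparisons of 9 genes gave 144 tests.

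Members and gene lists were chosen with earlier results of these data known. Named genes were all members, Yy1, up to 2 called genes of smallest p per list and comparison with a mean of at least 5 CPM, and the 3 genes most like each member by Pearson r, predicted genes left out. Same-numbered EPS and ES libraries deviated together (r = 0.244, 0.32 and 0.546 over genes), which met the threshold for treating the numbers as pairs. Replicates 1 and 2 did so across numbers as well (r = 0.315 and 0.361), and replicate 3 of either group ran against them (r = -0.463 to -0.386), so these values separate replicate 3 from the others and do not match replicates 1 and 2 by number. The fit with the replicate number as a block changed no member's call. Coordinates and promoter stretches are RefSeq's on GRCm38.p6, in which 34757 symbols were found.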

Additional observations from a re-analysis of the deposited data

Results flagged for a closer look

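In 3 contrasts a difference between groups was itself called by edgeR. The effect of the Yy1 hairpin, the libraries labelled shYy1 against shCtrl, differed between day 6 and the undifferentiated state for all 9 genes on the log2 scale, Spry1 by -0.42, Spry2 by 0.91, Spry4 by 1.76, Spred1 by 0.87, Spred2 by 0.66, Dusp4 by 0.99, Dusp5 by 0.73, Dusp6 by 1.25 and Il17rd by 0.62, with 41.5% of genes called in this contrast.

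The effect of the Yy1 construct differed between the stages for 6 genes, Spry2 by -0.79, Spry4 by -3, Spred1 by -0.43, Spred2 by 0.47, Dusp5 by -0.94 and Dusp6 by -1.08, with 37.6% of genes called.

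The response to F4H differed between EPS shCtrl and ES oeCtrl for 7 genes, Spry2 by -1.47, Spry4 by -6.21, Spred1 by -1.51, Spred2 by -1.24, Dusp4 by -2.48, Dusp5 by -2.33 and Dusp6 by -3.29, with 48.7% of genes called. Yy1 was not called lower with TMM in the day 6 libraries labelled shYy1, so the first set is given under that label.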

How the results depend on the processing

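The count of inhibitors called stayed within 1.5 times its value in every comparison under every alternative run: RLE factors, DESeq2, no filter on low counts, the compared libraries alone, no X- or Y-linked genes, the replicate block, each library left out, and (chosen after seeing the data) library totals without TMM, no fibroblast list and no replicate 3 of ES and EPS. Leaving genes out of the fit does not change the members' own counts and so does not test what other cells or lines contribute. No called inhibitor changed direction. Scaling CPM by TMM factors moved 27 of 90 group means by more than their SD. Changes of sign touched uncalled genes. With library totals these were Spry2 (log2 0.116) and Spry4 (0.092) in EPS shCtrl against EPS, Il17rd on day 6 between origins (0.081) and in the F4H response between origins (0.035), and Spry2 in the F4H response of EPS shYy1 (-0.001). Leaving out each library gave Spry1 -0.03 to 0.181 and Il17rd -0.3 to 0.051 in ES oeCtrl against ES, Spry2 -0.154 to 0.078 and Spry4 -0.288 to 0.102 in EPS shCtrl against EPS, and Dusp5 -0.283 to 0.277 with the hairpin. It gave Spry1 -0.173 to 0.195, Spred2 -0.177 to 0.01 and Dusp4 -0.24 to 0.463 with the construct, and Il17rd -0.251 to 0.267 between control lines, -0.326 to 0.203 in the F4H response between origins and -0.097 to 0.251 in the stage change of the construct effect. Spry2 in the F4H response of EPS shYy1 ran from -0.03 to 0.151. With the replicate block Spry1 in ES oeCtrl against ES was -0.016, and the block changed no other sign and no call of a member. Groups of 2 share only a number (r of same-numbered deviations -0.069 to 0.119). The causes were not tested.

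Over all genes, calls for the hairpin fell from 4682 to 2571, 2618 and 2703 without EPS shCtrl replicate 2, EPS shYy1 replicate 1 or EPS shYy1 replicate 2. For the construct they went from 5255 to 3290, 3378 and 3065 without ES oeCtrl replicate 1, ES oeYy1 replicate 1 or ES oeYy1 replicate 2 and to 8149 with the libraries compared alone. A group left with 1 library is assumed to vary like the others.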

Other observations

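The rest of the pathway also changed between the undifferentiated state and day 6 of F4H. Of 24 ERK-driven factors and targets, 21 rose and 2 fell in ES oeCtrl (median log2 2.59) and 16 rose and 5 fell in EPS shCtrl (median log2 2.47). Of 18 other feedback regulators 13 rose and 2 fell in each of these lines, with medians of 2.60 and 1.13. Of 14 receptors 11 rose and 3 fell in each, with medians of 1.70 and 2.18. Adaptors and cascade members went both ways, 10 of 25 up and 11 down in ES oeCtrl and 11 up and 8 down in EPS shCtrl. Medians over all genes were 0.034 and 0.011, and 73.0% and 74.1% of all genes were called.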
